A study of Mus musculus with 12 samples.

Results

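Nicotinamide adenine dinucleotide (NAD) metabolism was followed through 10 genes: Nnmt, Nampt, Naprt, Nmnat1, Nmnat2, Nmnat3, Nadk, Sirt1, Sirt3 and Cd38. Every ATAC-seq peak that the deposited tables assign to any of these gene symbols was taken, which gave 59 of 58558 peaks in brown fat and 45 of 39558 peaks in inguinal fat, 104 in all. ATAC-seq counts the fragments that a transposase cuts from open chromatin, so that a peak is a stretch of accessible DNA and not a measure of mRNA. The flox mice carried BAF60a flox/flox alleles, and the AKO mice carried the same alleles with an Adiponectin-Cre transgene, which deletes BAF60a in cells that have made adiponectin. BAF60a, encoded by Smarcd1, belongs to SWI/SNF, a complex that moves and evicts nucleosomes. Brown fat came from 3 flox and 3 AKO mice, whose age and housing temperature are not given in the sources used here. Inguinal fat came from mice of 6 to 8 months that were brought to 10 °C in steps of 3 °C a day and then kept there for 7 days. The fat of 6 such mice per genotype was pooled, minced and divided, so that the 3 flox and 3 AKO inguinal samples are aliquots of a single pool each and their spread is technical. Both tissues hold cells other than adipocytes, in which this Cre is not active, and fewer cells of a type cannot be told apart from less open chromatin per cell.

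NAD carries electrons in metabolism and is also used up by enzymes that cleave it. In the salvage route, Nampt joins nicotinamide to a phosphoribosyl group and the Nmnat enzymes complete NAD, while Naprt begins the parallel route from nicotinic acid. Sirtuins and Cd38 consume NAD and release nicotinamide, which Nnmt can methylate and so remove from salvage. Nnmt is known for its high expression in white fat, and the salvage route through Nampt for its part in thermogenic fat.

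The libraries held 6336670 to 27500738 reads in peaks in brown fat and 4066720 to 6691161 in inguinal fat, and all values below are reads per peak divided by a size factor for each sample (normalized reads). In brown fat the flox 1 library was the deepest and the AKO 2 library the shallowest, and these lay at opposite ends of the first principal component (PC1) of the table, which held 55.6% of the variance. Fold changes in brown fat are therefore adjusted for PC1, as in the study, and can differ from the ratio of the means. The PC1 scores were −98.2, −41.8 and 14.6 in flox and −0.617, 112 and 13.5 in AKO. They overlapped but leaned with genotype, so the adjustment can also take up part of a genotype difference. How large that part is was not tested. At the targeted gene, the peak in intron 4 of Smarcd1 gave 136, 201 and 185 normalized reads for the flox mice of the brown fat set and 23.7, 57.9 and 26.9 for the AKO mice, while the peak over its start overlapped between genotypes in both tissues. The peaks of the 6 brown or beige adipocyte markers (Ucp1, Cidea, Dio2, Elovl3, Cox8b and Ppargc1a) summed to 20630 to 24700 normalized reads in flox and to 14110 to 15470 in AKO brown fat, with a negative fold change at 68 of 72 peaks. The 6 general adipocyte markers summed to 19560 to 21170 and to 13390 to 18240, without overlap, with a negative fold change at 35 of 43 peaks. Macrophage markers had 2 peaks in brown fat, with sums of 169 to 276 in flox and 177 to 216 in AKO, and Cd68, Csf1r, Lyz2 and Ptprc had none. The sums of the endothelial and skeletal muscle lists also overlapped there, as did those of the fibroblast list (2133 to 2212 in flox, 2193 to 2225 in AKO). In inguinal fat the sums of the macrophage list (268 to 327 in flox, 175 to 240 in AKO) were lower in every AKO sample. That list had 4 peaks of 3 genes there, and Cd68, Mrc1 and Lyz2 had none. The sums of the endothelial list (766 to 855 and 671 to 740) were also lower in every AKO sample. Those of the adipocyte, brown or beige, skeletal muscle and fibroblast lists overlapped. The part of these differences in the results below was not tested.

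The starts of the genes differed in sequence as well as in accessibility. The 250 bases before the start are shown for Nampt and Nmnat1, whose start peaks were the strongest in brown fat, and for Cd38 and Nmnat2, which had no peak over the start. They are from RefSeq, build GRCm38.p6 (mm10), 5′ to 3′ on the strand of the gene, with matches to GGGCGG (the SP1 motif), CCAAT (NF-Y), CACGTG (E-box), AGGTCA (a nuclear receptor site), TGACGTCA (cAMP response element), TTGCGCAA (C/EBP) and CCCNNGGG (EBF core) on either strand in capitals.
Nampt, chr12:32820085-32820334, plus strand: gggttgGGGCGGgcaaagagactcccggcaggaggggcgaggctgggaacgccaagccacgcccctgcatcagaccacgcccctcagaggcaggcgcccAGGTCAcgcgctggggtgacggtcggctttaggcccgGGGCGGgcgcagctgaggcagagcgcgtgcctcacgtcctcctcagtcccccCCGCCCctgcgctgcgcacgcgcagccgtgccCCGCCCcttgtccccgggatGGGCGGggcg
Nmnat1, chr4:149485211-149485460, minus strand: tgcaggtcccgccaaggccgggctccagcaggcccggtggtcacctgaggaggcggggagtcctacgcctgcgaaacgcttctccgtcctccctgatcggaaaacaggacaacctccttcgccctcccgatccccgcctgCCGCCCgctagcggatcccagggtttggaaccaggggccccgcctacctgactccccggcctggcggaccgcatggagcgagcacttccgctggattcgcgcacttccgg
Cd38, chr5:43868559-43868808, plus strand: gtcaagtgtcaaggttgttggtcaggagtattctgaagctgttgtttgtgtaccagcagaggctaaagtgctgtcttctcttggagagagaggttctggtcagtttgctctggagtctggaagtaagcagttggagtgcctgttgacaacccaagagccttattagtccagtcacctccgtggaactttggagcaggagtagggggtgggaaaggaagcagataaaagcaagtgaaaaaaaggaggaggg
Nmnat2, chr1:152954851-152955100, plus strand: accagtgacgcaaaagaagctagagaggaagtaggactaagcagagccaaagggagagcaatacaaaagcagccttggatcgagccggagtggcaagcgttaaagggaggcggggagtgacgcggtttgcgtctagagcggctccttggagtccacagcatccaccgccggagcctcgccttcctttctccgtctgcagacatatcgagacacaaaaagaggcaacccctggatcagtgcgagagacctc

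The Nampt promoter held 75.6% G and C and 5 GGGCGG matches beside 1 AGGTCA match, against a median of 52.4% G and C over 32851 promoters. Of all these promoters, 32.7% held GGGCGG, 14% AGGTCA, 33.8% CCAAT and 6.02% CACGTG, and GGGCGG can lie inside the longer GC-rich runs that make up such promoters. The Nmnat1 promoter held 69.2% G and C and 1 GGGCGG match. The Sirt1 promoter was the richest of the set, with 79.2% G and C, 6 GGGCGG and 2 CACGTG matches. At Cd38 the value was 48.8%, with a ratio of observed to expected CpG of 0.0783 against a median of 0.374, and none of the 7 motifs was found. At Nmnat2, with 56.4% G and C and a CpG ratio of 0.761, none was found either. Of the 10 genes, 8 had an entry among these promoters. Nnmt and Naprt did not.

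In brown fat, 8 of the 10 genes had a peak over the start, and these ranged 3.63-fold in level per kb in flox mice. Nampt, the rate-limiting enzyme of salvage, and Nmnat1, the nuclear enzyme that completes NAD, stood highest, at 1226 ± 201 and 1214 ± 154 normalized reads per kb (SD, n = 3), and their samples overlapped. They stood at the 97.8 and 97.7 percentile of the 11410 brown fat peaks over a RefSeq start. The Nmnat1 peak also covers the start of the neighbouring gene Lzic, which runs the other way, so that its level cannot be credited to Nmnat1 alone. Nadk, the kinase that turns NAD into NADP, followed at 661 ± 61.5, then the deacetylase Sirt1 at 587 ± 61.1, the mitochondrial sirtuin Sirt3 at 535 ± 70.8, Nnmt at 447 ± 157, Naprt at 427 ± 41.6 and the mitochondrial Nmnat3 at 338 ± 47.0. Each neighbour from Nadk down to Naprt overlapped in its flox samples with the next, whereas Nmnat1 lay above Nadk, and Naprt above Nmnat3, without overlap. The Sirt3 peak also holds the start of Psmd13, a proteasome subunit gene.

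The order was partly different in inguinal fat, where levels cannot be set against brown fat because the tables were normalized separately. Nadk (594 ± 24.4 normalized reads per kb in flox) and Nampt (589 ± 37.2) stood at the 96.1 and 96.0 percentile of 10914 inguinal start peaks and overlapped with each other. Nmnat3, Sirt1, Nmnat1 and Sirt3 followed between 336 ± 35.9 and 269 ± 19.96, each overlapping with the next. Naprt (197 ± 7.48) and then Nnmt (175 ± 10.4) came last, each below its upper neighbour without overlap. Within its own table, the Nnmt start peak was at the 53.0 percentile of start peaks in brown fat and at 24.6 in inguinal fat, while Nmnat3 was at 36.2 and 71.1 and Nmnat1 at 97.7 and 65.9. Levels per kb depend on the called width, which for the Nmnat3 start peak was 1662 bases in brown fat and 527 in inguinal fat.

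**Figure D1:**
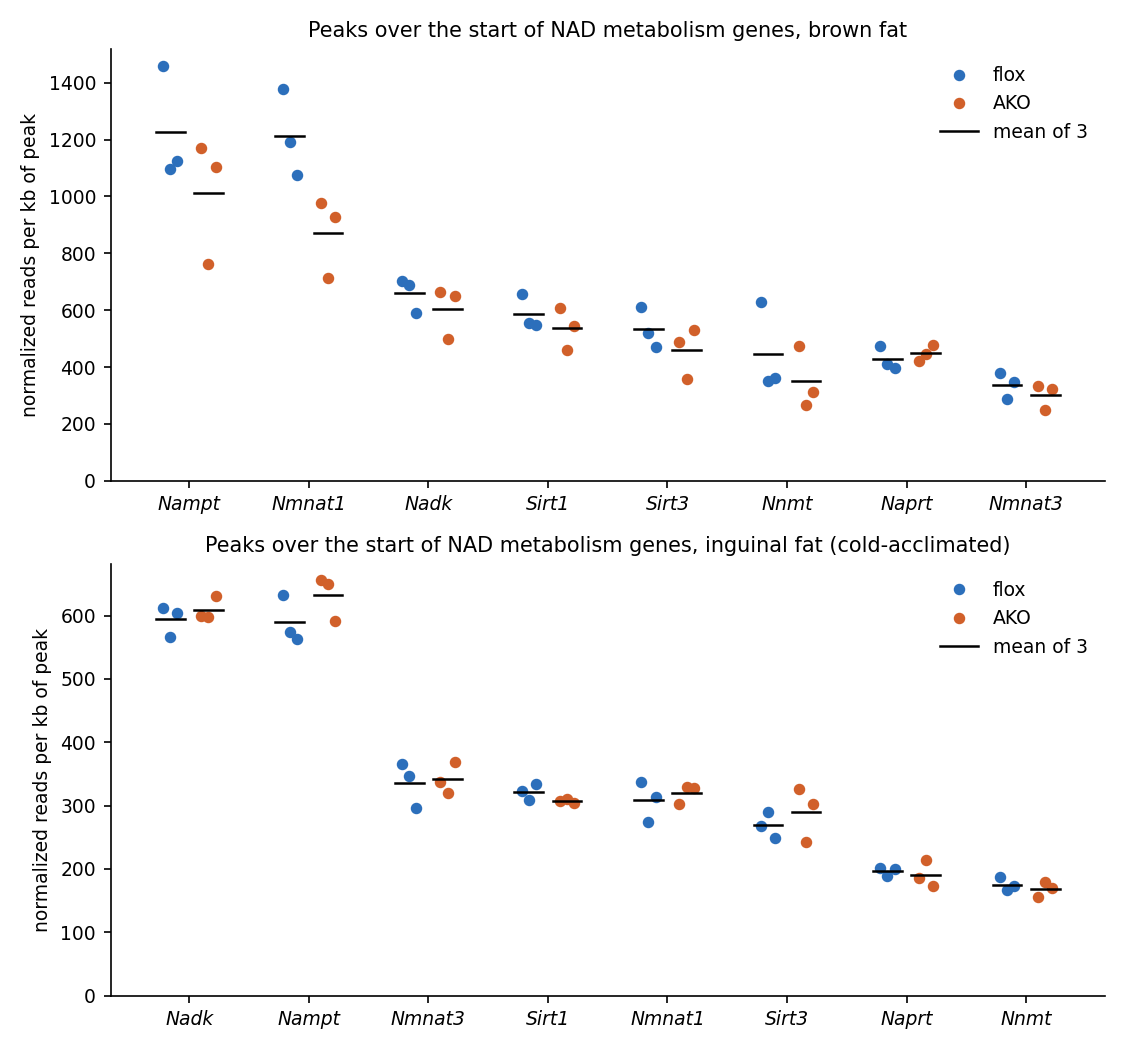
Normalized reads per kb of peak (vertical axis, linear) for each of the 3 flox (blue) and 3 AKO (orange) samples at the peaks over the start of 8 genes, with black bars at the mean of 3, in brown fat (upper panel) and inguinal fat (lower panel). Genes are ordered by the flox mean, and Nmnat1 in brown fat is the gene whose samples do not overlap between genotypes.

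Between genotypes, limma called none of the 16 start peaks at an adjusted p under 0.1, nor any other peak of either tissue. In brown fat, the Nampt start peak (chr12:32819863-32821268) held 2049, 1541 and 1582 normalized reads in flox and 1645, 1074 and 1549 in AKO. The flox 1 sample was the highest and AKO 2 the lowest, and the groups overlapped (log2 fold change 0.08 ± 0.19 SE, adjusted p = 0.918 by limma). At Nmnat1 (chr4:149484532-149485811) the values were 1765, 1523 and 1375 in flox and 1252, 912 and 1186 in AKO. Here every AKO sample lay below every flox sample, but the PC1-adjusted change was −0.18 ± 0.17 with an adjusted p of 0.777, and without the PC1 term it was −0.48 with an unadjusted p of 0.0426. The Sirt1 start peak (chr10:63338298-63339677) held 907, 765 and 757 in flox and 838, 635 and 750.3 in AKO, with the groups overlapping. At the start of Sirt3 (chr7:140881678-140882674) the values were 609.8, 519 and 471 in flox and 488, 355 and 528 in AKO. The Nadk peak (chr4:155562184-155564673) held 1748, 1719 and 1469 in flox and 1650.5, 1246 and 1622 in AKO. AKO 2 was again the lowest sample at all of these. Naprt (chr15:75893834-75894743) had 431, 374 and 359.6 in flox and 383, 406 and 434 in AKO, Nmnat3 (chr9:98296392-98298053) had 631, 477 and 577 against 553, 411 and 534, and both overlapped. Of the 8 brown fat start peaks, 1 had a negative adjusted fold change and their median was 0.10. The median over all 11410 brown fat start peaks was 0.11.

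The same starts in inguinal fat gave small differences. Nampt (chr12:32819898-32821074) held 743, 675 and 662 normalized reads in flox and 772, 765 and 696 in AKO, and Nadk (chr4:155563286-155564603) held 805, 746 and 797 against 791, 788 and 831. Sirt1 had 408, 390.2 and 423 in flox and 389.6, 393 and 385 in AKO, and Sirt3 had 217, 235 and 202 against 265, 196 and 245. All of these overlapped between genotypes. Nmnat1 held 324, 262 and 300.4 against 289, 315 and 314, Nmnat3 192, 182 and 156 against 178, 169 and 195, and Naprt 200.3, 187 and 199 against 184, 212 and 172. These also overlapped, and the 8 inguinal start peaks had log2 fold changes with a median of 0.03, of which 3 were negative.

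Across all their peaks, the 10 genes gave no call in either tissue at an adjusted p under 0.1 by limma (0 of 59 in brown fat and 0 of 45 in inguinal fat), where the test called 0.0% of all peaks in each table. limma did not call the Smarcd1 intron 4 peak of brown fat either (adjusted p = 0.269). edgeR and DESeq2 on recovered reads called that peak (adjusted p = 0.00169 and 4.05e-11). A lack of limma calls therefore cannot show a lack of difference. In brown fat 2 of 59 member peaks had an unadjusted p under 0.05 and were lower in AKO mice (3.39%, against 5.59% of all brown fat peaks), and 0 were higher (against 3.46%). In inguinal fat 2 of 45 were lower (4.44%, against 7.42%) and 2 were higher (4.44%, against 7.61%). These shares are at or below those of all peaks. edgeR on the recovered reads called 0 of 59 member peaks in brown fat, where it called 0.143% of all peaks, and 1 of 45 in inguinal fat, where it called 4.67%. DESeq2 called 0 of the 47 and 0 of the 42 member peaks that it gave an adjusted p, against 0.408% and 1.18% of all peaks so tested. The median log2 fold change of the members was −0.01 in brown fat and −0.02 in inguinal fat, and that of all peaks was 0.01 and −0.000888.

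The unadjusted values showed a lean in brown fat. The AKO mean was below the flox mean at 42 of 59 member peaks (71.2%), against 51.3% of all peaks. Most of these lay at Nampt (15 of 17 peaks), Nnmt (10 of 14) and Nmnat2 (8 of 10). The other genes had Nadk 4 of 4, Sirt3 1 of 1, Naprt and Sirt1 1 of 2 each, Nmnat1 1 of 3, Nmnat3 1 of 4 and Cd38 0 of 2. After the PC1 adjustment the fold change was negative at 32 of 59 member peaks (54.2%, against 49.1% of all peaks). By gene it was negative at 6 of 17 Nampt peaks, 11 of 14 Nnmt peaks and 8 of 10 Nmnat2 peaks. Every AKO sample lay below every flox sample at 11 member peaks (18.6%, against 8.84%) and above at 4 (6.78%, against 8.77%). The 11 lower peaks had flox means of 114 to 1554 normalized reads and belong to Nnmt, Nampt, Nmnat1, Nmnat2 and Nadk. The 4 higher peaks, of Cd38, Nmnat1 and Sirt1, had flox means of 31.1 to 42.8. Over all brown fat peaks the same classes had median flox means of 222 and 68.6. The AKO 2 library was the lowest of the 6 at 31 of the 59 member peaks (52.5%, against 28.9% of all peaks), and flox 1 was the highest at 28 (47.5%, against 25.4%). Without the PC1 term the members' median log2 fold change was −0.19 and that of all peaks −0.01, with 5 member peaks lower and 4 higher at an unadjusted p under 0.05 (15.3% in all, against 11.9% of all peaks). Genotypes did not overlap in inguinal fat at 4 member peaks lower in AKO (8.89%, against 10.3% of all peaks) and 2 higher (4.44%, against 10.6%).

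**Figure D2:**
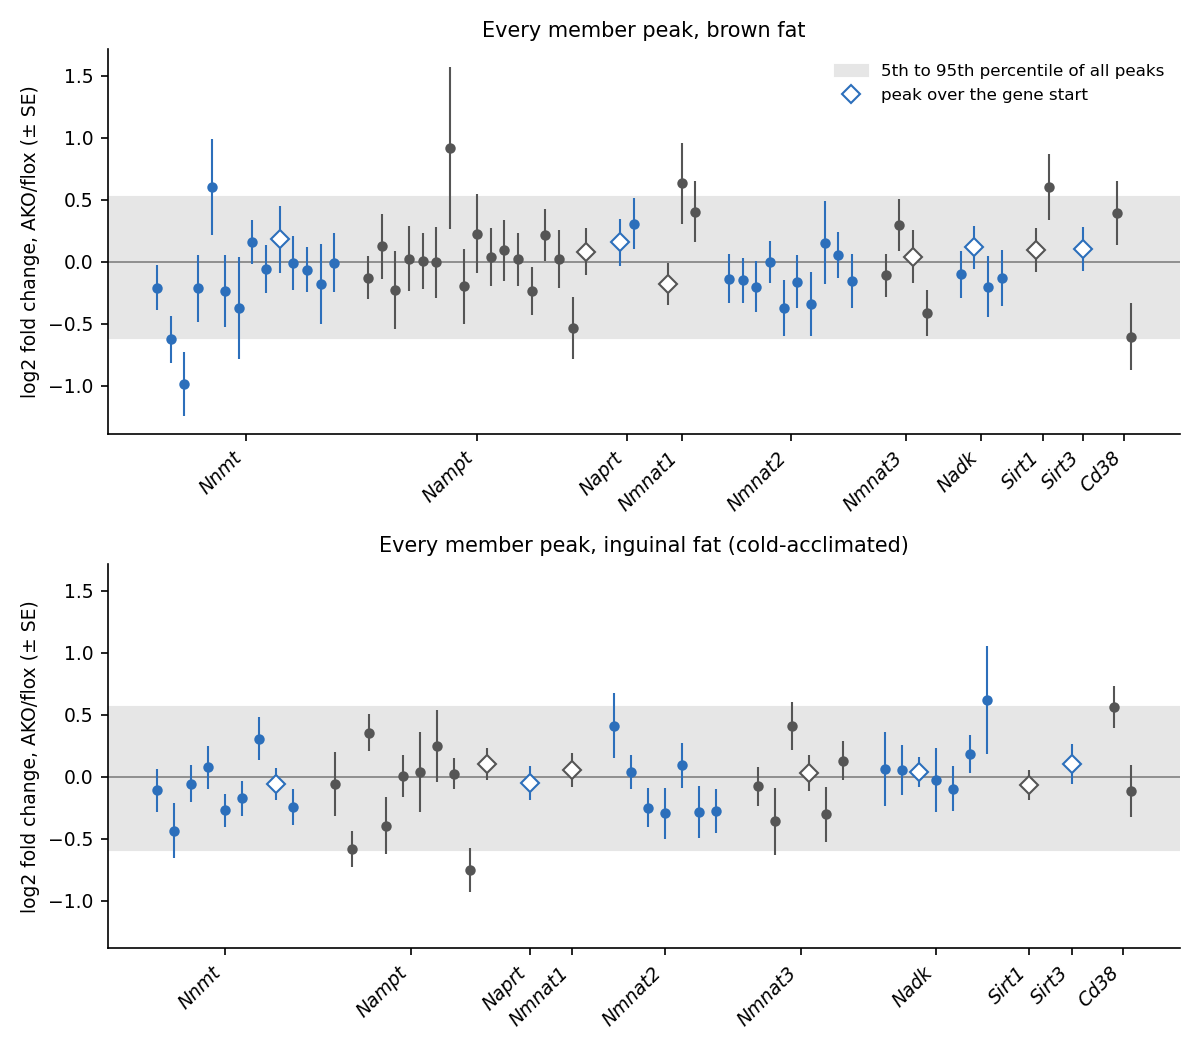
Log2 fold change of AKO against flox with its standard error (vertical axis) for each of the 59 brown fat (upper panel) and 45 inguinal (lower panel) peaks, grouped by gene and ordered within a gene from upstream to downstream. Diamonds are peaks over the gene start, grey bands span the 5th to the 95th percentile of all peaks of that table, and the most negative values are the upstream Nnmt peak at −0.98 in brown fat and the Nampt peak at −0.75 in inguinal fat.

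Nnmt, on the minus strand at chr9:48591877-48605123, had 14 peaks in brown fat and 9 in inguinal fat, of which 9 pairs overlapped. The peak over its start in brown fat (chr9:48604891-48606551) held 1042, 582 and 600.2 normalized reads in flox and 788, 442 and 518 in AKO. Replicate 1 was the highest of each genotype and the groups overlapped (log2 fold change 0.18 ± 0.27, adjusted p = 0.864). In inguinal fat the peak held 289, 257 and 269 in flox and 242, 279 and 262 in AKO, again with overlap (−0.06 ± 0.13). Most of the accessible DNA assigned to Nnmt lies upstream of it, and the peaks from 50817 bases upstream onward sit inside Zbtb16, the gene of a zinc finger transcription factor. Assignment to Nnmt follows the deposited tables and does not show which gene a peak acts on.

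Among the brown fat member peaks whose genotypes did not overlap, the smallest p belonged to a peak in intron 4 of Zbtb16, 102609 bases upstream of the Nnmt start (chr9:48707189-48708275). In brown fat it held 499.5, 401 and 362 normalized reads in flox and 229, 214 and 253 in AKO. All 3 AKO samples lay below all 3 flox samples, and the ratio of the means was 0.552. The PC1-adjusted log2 fold change was −0.62 ± 0.19 with an unadjusted p of 0.0129 and an adjusted p of 0.480 by limma, and an adjusted p of 0.265 by edgeR. Without PC1 it was −0.85, with an unadjusted p of 0.00208. Leaving out a sample gave −0.70 to −0.48, and without AKO 1 the unadjusted p was 0.0862. In inguinal fat a narrower peak at this place, −102351 bases (chr9:48707330-48707618), held 67.0, 41.1 and 69.7 in flox and 41.5, 48.0 and 38.5 in AKO, where flox 2 fell among the AKO samples (−0.43 ± 0.22, unadjusted p = 0.0895). The central 300 bases of the brown fat peak are printed for that reason. They were read from GRCm38.p6 on the plus strand, 23.0% of them are masked as repeats, and they hold none of the 7 motifs, so no letter is in capitals.
Nnmt upstream peak, chr9:48707582-48707881: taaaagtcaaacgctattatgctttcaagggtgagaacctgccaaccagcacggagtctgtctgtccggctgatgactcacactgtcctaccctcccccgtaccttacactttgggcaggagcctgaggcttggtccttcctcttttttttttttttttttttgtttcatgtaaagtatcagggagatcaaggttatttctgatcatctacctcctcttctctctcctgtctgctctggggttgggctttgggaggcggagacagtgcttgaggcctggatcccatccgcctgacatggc

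A weaker peak in the same intron, 79368 bases upstream (chr9:48684320-48684663), had the smallest p of all brown fat member peaks. It held 44.9, 58.4 and 54.3 normalized reads in flox and 24.7, 54.1 and 35.5 in AKO. The AKO 2 sample lay among the flox samples, and the fold change of −0.98 ± 0.26 (unadjusted p = 0.00668, adjusted p = 0.444) became −0.51 without the PC1 term. Farther up, the peak at −111616 bases held 627, 454 and 431 in flox and 385, 268 and 350.2 in AKO, without overlap (−0.21, unadjusted p = 0.294). In inguinal fat the smallest p at Nnmt was that of the peak 44210 bases upstream (chr9:48649014-48649653), with 282, 286 and 264 in flox and 254, 227 and 209.6 in AKO. All AKO samples were lower there (−0.27 ± 0.13, adjusted p = 0.393). The remaining 11 brown fat peaks, that at −111616 bases included, had fold changes of −0.37 to 0.60, and the remaining 7 inguinal peaks, that at −102351 bases included, −0.43 to 0.31. The fold change was negative at 11 of 14 brown fat Nnmt peaks (78.6%, against 49.1% of all peaks). In inguinal fat it was negative at 7 of 9 (77.8%, against 50.1%).

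**Figure D3:**
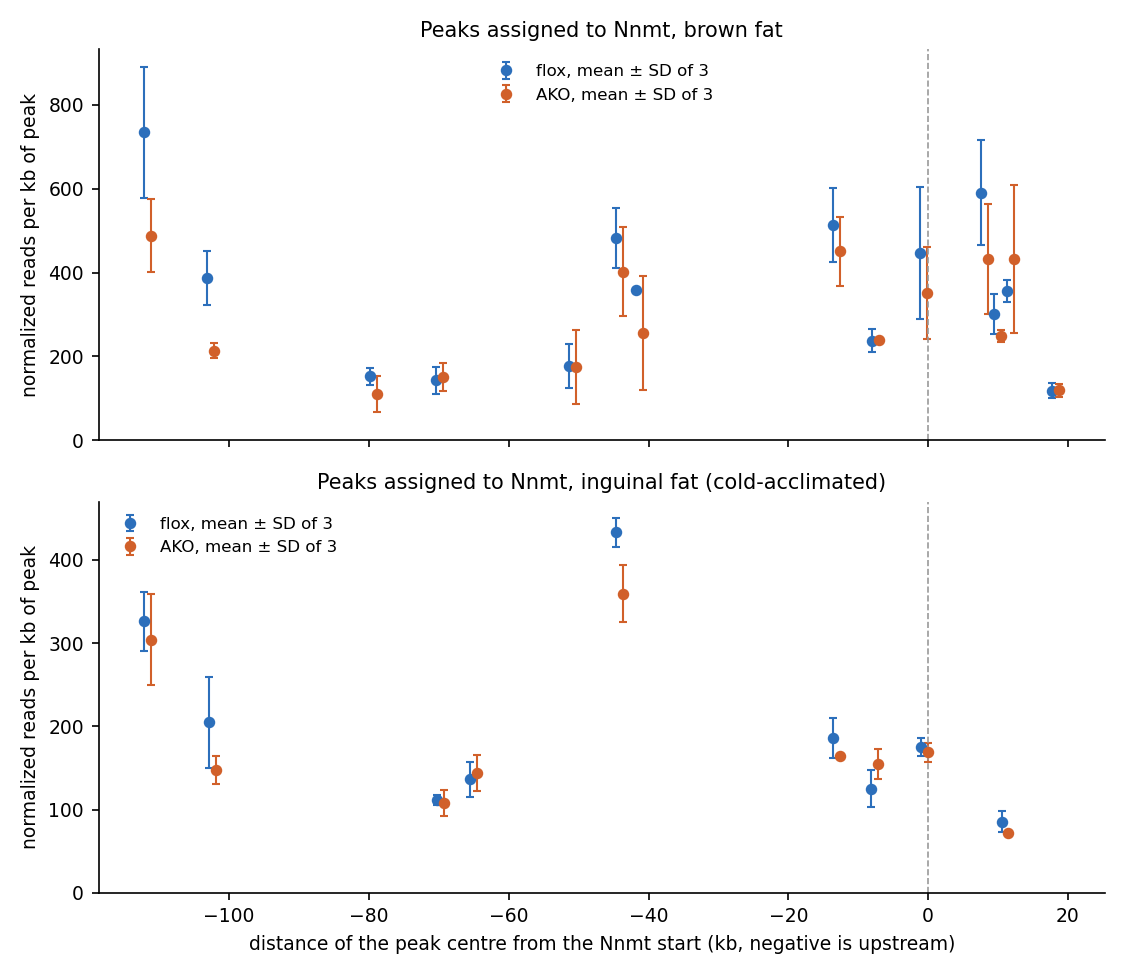
Normalized reads per kb of peak (vertical axis, linear, mean ± SD of 3) for flox (blue) and AKO (orange) samples at the peaks assigned to Nnmt, against the distance of the peak centre from the Nnmt start in kb (negative is upstream). In brown fat (upper panel) the peak 102609 bases upstream shows the groups apart, and in inguinal fat (lower panel) the strongest peak per kb lies 44210 bases upstream. The colours are shifted slightly sideways so that both can be seen.

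Nampt, on the plus strand at chr12:32820335-32853369, had 17 peaks in brown fat and 10 in inguinal fat. All but the start peak were intergenic and upstream, out to 203685 bases, and no other peak lay inside the gene. In brown fat 3 of these distal peaks were as accessible per kb as start peaks of other members: those at −158316, −54280 and −110844 bases had flox means of 1029, 1014 and 795 normalized reads per kb. Their fold changes were 0.01, 0.21 and 0.04. The peak nearest to a difference was at −48979 bases (chr12:32770922-32771791), with 177, 193 and 190.2 normalized reads in flox and 140.2, 81.1 and 112 in AKO. All AKO samples were lower, with a fold change of −0.53 ± 0.25 and an adjusted p of 0.579. Without the PC1 term it was −0.78, with an unadjusted p of 0.00823 by limma. With that term, leaving out AKO 1 gave −0.80 and leaving out flox 3 gave −0.24. Yet the flox 3 value lay between those of flox 1 and flox 2. The size of the PC1-adjusted change thus depends on which samples enter the fit. The groups were also apart at −203685 and −62408 bases, with fold changes of −0.13 and −0.24. The 15 brown fat peaks other than that and the start peak ranged from −0.24 to 0.92.

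The smallest p of all inguinal member peaks belonged to the Nampt peak 24173 bases upstream (chr12:32795845-32796479), where brown fat had no peak. It held 53.5, 61.1 and 80.0 normalized reads in flox and 34.6, 38.8 and 39.6 in AKO. The groups did not overlap, and the log2 fold change was −0.75 ± 0.18 with an adjusted p of 0.163 by limma and of 0.0685 by edgeR, so that edgeR called it and limma and DESeq2 did not. Leaving out a sample gave −0.88 to −0.59, and a PC1 term, whose scores separate the inguinal genotypes, gave −2.09 with an unadjusted p of 0.202. The central 300 bases of this peak, the 1 member peak that any test called, are printed from GRCm38.p6 on the plus strand with the AGGTCA match, on the minus strand, in capitals. They hold a long CA repeat, and 30.7% of them are masked as repeats against a median of 7.33% over inguinal peaks that cover no start.
Nampt upstream peak, chr12:32796012-32796311: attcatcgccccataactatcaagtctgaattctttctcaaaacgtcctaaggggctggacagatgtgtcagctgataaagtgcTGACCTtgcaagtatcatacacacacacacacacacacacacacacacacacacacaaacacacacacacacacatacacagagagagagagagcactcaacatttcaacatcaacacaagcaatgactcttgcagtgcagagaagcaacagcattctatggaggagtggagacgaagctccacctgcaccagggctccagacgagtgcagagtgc

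Another 2 inguinal Nampt peaks had the groups apart. At −198238 bases (chr12:32621838-32622356) the values were 65.6, 60.04 and 76.6 normalized reads in flox and 43.8, 48.0 and 41.7 in AKO, lower in AKO mice (−0.58 ± 0.15, adjusted p = 0.177). At −158225 bases (chr12:32661852-32662368) they were 93.4, 95.6 and 98.1 in flox and 109.5, 144 and 118 in AKO, higher in AKO mice (0.36 ± 0.15, adjusted p = 0.315). This second peak overlaps the strong brown fat peak at −158316 bases, whose groups overlapped. The 6 other inguinal peaks ranged from −0.39 to 0.25.

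**Figure D4:**
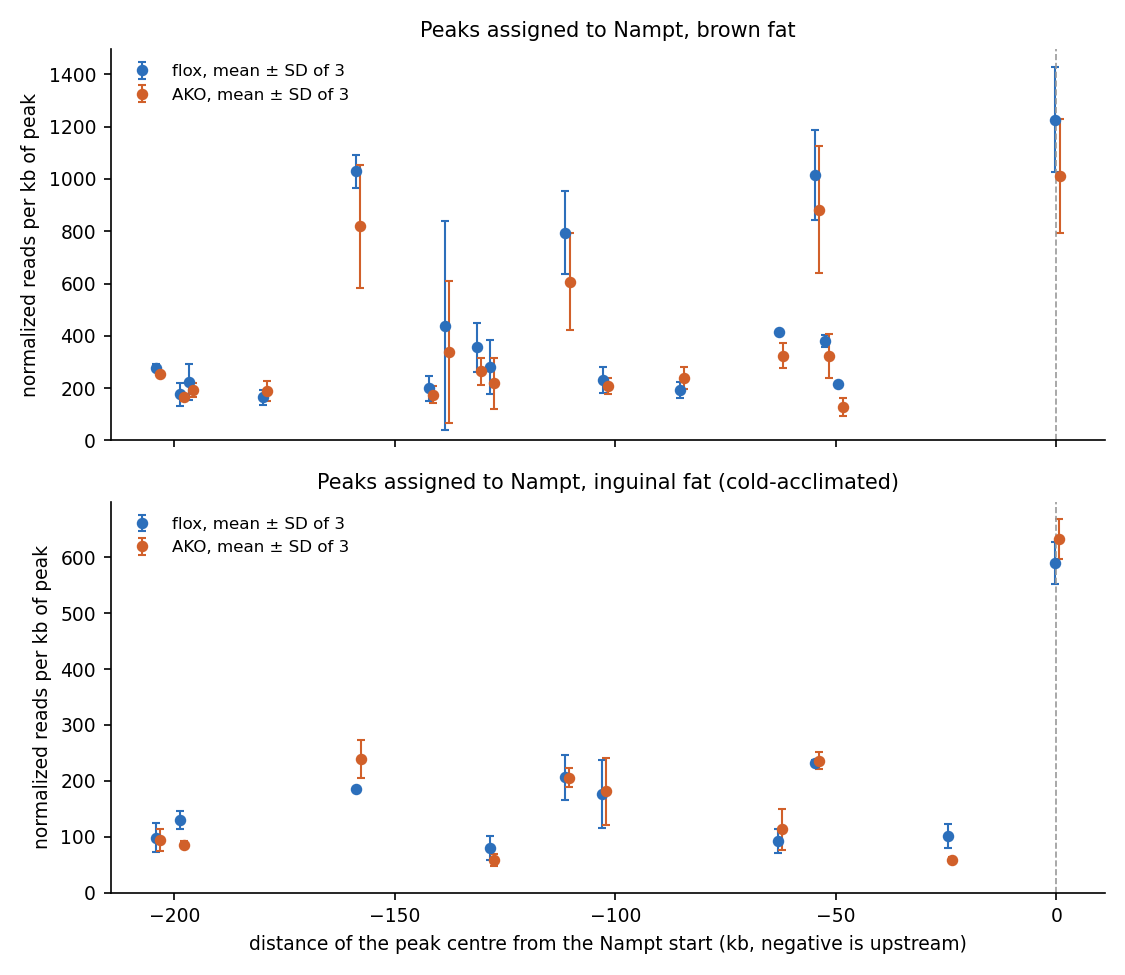
Normalized reads per kb of peak (vertical axis, linear, mean ± SD of 3) for flox (blue) and AKO (orange) samples at the peaks assigned to Nampt, against the distance of the peak centre from the Nampt start in kb. In brown fat (upper panel) 3 distal peaks reach 795 to 1029 normalized reads per kb in flox, and in inguinal fat (lower panel) the peak 24173 bases upstream is lower in the AKO samples. The colours are shifted slightly sideways so that both can be seen.

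The other enzymes that make NAD had few peaks beyond their starts, except Nmnat2. Naprt, the nicotinic acid phosphoribosyltransferase, had a further brown fat peak in intron 5 (chr15:75892627-75892998) with 179, 185 and 150.1 normalized reads in flox and 188, 120 and 196 in AKO. AKO 2 was the lowest and the groups overlapped (0.31 ± 0.21, adjusted p = 0.690). Nmnat1 had 2 weak intronic peaks in brown fat whose groups were apart and higher in AKO mice. The stronger in fold change, in intron 1 (chr4:149479070-149479254), held 31.4, 56.9 and 40.1 in flox and 84.5, 73.4 and 57.6 in AKO (0.63 ± 0.33, adjusted p = 0.611). Its lowest AKO value exceeded the highest flox value by less than 1 read.

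Nmnat2, which makes NAD outside the nucleus and is best known from neurons, had 10 brown fat and 7 inguinal peaks, all in intron 1 and none over the start. The nearest to the start in brown fat, at 1274 bases (chr1:152956283-152956467), was weak, with 27.7, 34.0 and 41.4 normalized reads in flox and 34.0, 38.6 and 37.4 in AKO, which overlapped. The peak of smallest p, at 90454 bases (chr1:153045400-153045711), held 158, 134 and 118 in flox and 92.8, 114 and 99.8 in AKO. Every AKO sample was lower (−0.37 ± 0.22, adjusted p = 0.659). The fold change was negative at 8 of 10 brown fat Nmnat2 peaks, with 3 groups apart and lower. The first inguinal peak lay 43882 bases in (chr1:152998873-152999093), with 25.7, 38.9 and 33.6 in flox and 32.3, 61.7 and 40.6 in AKO. The peak of smallest p, at 59275 bases (chr1:153014022-153014730), held 90.5, 78.9 and 98.1 in flox and 81.8, 63.9 and 79.1 in AKO. Both overlapped, with fold changes of 0.41 ± 0.26 and −0.25 ± 0.16.

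At Nmnat3, the intron 1 peak 33364 bases from the start (chr9:98329730-98330139) of brown fat held 61.7, 71.7 and 107 normalized reads in flox mice against 75.3, 114 and 71.0 in AKO mice. These values overlapped throughout, while the PC1-adjusted fold change was −0.41 ± 0.19 (adjusted p = 0.571). Upstream in inguinal fat, the peak at −34902 bases (chr9:98261573-98261763) held 19.96, 23.3 and 29.3 in flox and 34.6, 26.3 and 36.4 in AKO, with AKO 2 inside the flox range (0.41 ± 0.19, adjusted p = 0.374).

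Among the genes that use NAD, Nadk had further peaks in its introns and, upstream, in intron 7 of Gnb1, which encodes a G protein subunit. In brown fat that upstream peak, at −11661 bases, held 621, 652 and 537 normalized reads in flox and 536, 375 and 499.9 in AKO. The groups were apart by less than 1 read, with a fold change of −0.10. The peak in Nadk intron 1 at 10070 bases (chr4:155573620-155574150) held 188, 242 and 164 against 156, 183 and 175, which overlapped (−0.20 ± 0.24). In inguinal fat the smallest p was that of a weak intron 3 peak at 18786 bases (chr4:155582492-155582711), with 39.2, 10.01 and 23.2 in flox and 28.8, 41.1 and 29.9 in AKO. The flox 2 sample was the lowest and flox 1 lay within the AKO range (0.62 ± 0.43, adjusted p = 0.542).

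Sirt1, a nuclear NAD-dependent deacetylase, had in brown fat a weak peak that lies in intron 20 of Herc4, 29885 bases from its start (chr10:63309058-63309243). It held 35.5, 26.6 and 31.0 normalized reads in flox and 52.6, 61.8 and 40.3 in AKO, higher in every AKO sample (0.60 ± 0.26, adjusted p = 0.561). Sirt3 had no other peak in either tissue.

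Cd38, an NAD-cleaving enzyme of the cell surface that immune cells carry in quantity, had 2 peaks in each tissue, all weak. Its brown fat peak in exon 1 (chr5:43868813-43869192) begins 4 bases past the annotated start, so that counting it as no start peak rests on those bases, and it stood at the 7.24 percentile of all brown fat peaks in flox reads per kb. It held 43.9, 37.7 and 46.6 normalized reads in flox and 57.7, 112 and 64.3 in AKO. Every AKO sample was higher and AKO 2 highest, and the ratio of the means was 1.826. The PC1-adjusted change was 0.39 ± 0.26 with an adjusted p of 0.686 by limma. Without the PC1 term it was 0.80, with an unadjusted p of 0.0156. The intron 1 peak at 29365 bases held 24.6, 28.1 and 59.5 in flox and 36.1, 57.9 and 27.8 in AKO, with overlap. Its PC1-adjusted fold change was −0.60 ± 0.27 with an adjusted p of 0.571 by limma, and 0.16 without the PC1 term. The inguinal exon 1 peak (chr5:43868884-43869291) held 36.4, 37.8 and 39.6 in flox and 42.6, 25.1 and 39.6 in AKO, which overlapped. The intergenic peak 23507 bases upstream (chr5:43845190-43845414) held 35.6, 31.1 and 37.0 in flox and 53.0, 42.2 and 60.9 in AKO. There the AKO samples were all higher (0.56 ± 0.17, unadjusted p = 0.0120, adjusted p = 0.210).

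Motif shares of the member peaks were set beside those of all peaks, and the differences were not tested. In the central 300 bases of peaks over no RefSeq start, AGGTCA was found at 20 of 51 brown fat member peaks (39.2%) and at 15 of 37 inguinal ones (40.5%), against 25.8% and 22.5% of all such peaks. CCAAT was found at 25.5% and 21.6% against 33.0% and 30.8%, and GGGCGG at 5.88% and 10.8% against 10.1% and 14.1%. No member peak held TGACGTCA or TTGCGCAA, which 0.693% and 0.172% of all brown fat peaks held. The median content of G and C in the member windows over no start was 50.3% in brown fat and 50.7% in inguinal fat, against 51.0% and 52.3%. Over starts, AGGTCA was found at 0 of 8 brown fat member peaks (against 10.7%) and at 2 of 8 inguinal ones (25.0%, against 9.94%). Overlapping peaks of the 2 tissues cover the same DNA, so these are not separate sets. Of the brown fat member peaks, 36 of 59 (61.0%) overlapped an inguinal member peak, and of the inguinal ones 38 of 45 (84.4%) overlapped a brown fat one. Over all peaks, 53.8% and 80.5% overlapped a peak of the other table.

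The wider NAD pathway was read from 32 further genes of synthesis, transport, sirtuins, PARP enzymes and nicotinamide breakdown, of which 25 had 86 peaks in brown fat and 24 had 72 in inguinal fat. limma called 0 of these in either tissue. In brown fat 4 were lower (4.65%, against 5.59% of all peaks) and 6 higher (6.98%, against 3.46%) at an unadjusted p under 0.05. In inguinal fat 7 were lower (9.72%, against 7.42%) and 5 higher (6.94%, against 7.61%). edgeR called 0 of 86 (against 0.143% of all peaks) and 4 of 72 (5.56%, against 4.67%), and DESeq2 called 0 in each. By limma, the smallest p in brown fat was at a peak assigned to Haao, an enzyme of synthesis from tryptophan, in intron 9 of Mta3 (1.19 ± 0.22, adjusted p = 0.417). Next came a peak assigned to the aldehyde oxidase gene Aox3, 21720 bases upstream in intron 26 of Aox1 (0.78 ± 0.18, adjusted p = 0.436). Then followed a peak in intron 1 of the mitochondrial NAD kinase gene Nadk2 (−0.71 ± 0.20, adjusted p = 0.466). The Haao peak held 26.6, 23.6 and 34.9 normalized reads in flox and 65.98, 100.4 and 83.5 in AKO. In inguinal fat the smallest p by limma was at an intergenic peak 241472 bases upstream of Nt5e, an ectonucleotidase (−0.99 ± 0.21, adjusted p = 0.151). Next came a peak assigned to the mitochondrial NAD carrier gene Slc25a51, 53052 bases upstream in intron 2 of Shb (0.58 ± 0.13, adjusted p = 0.153). After it came another Haao peak, in intron 12 of Mta3 (−0.65 ± 0.16, adjusted p = 0.166). The last held 78.4, 68.9 and 79.2 in flox and 46.1, 55.9 and 41.7 in AKO and was among those called by edgeR. It lies elsewhere in Mta3 than the brown fat Haao peak. Median log2 fold changes over the wider list were 0.07 in brown fat and −0.06 in inguinal fat.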

How the data were processed

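ATAC-seq of brown fat (3 flox, 3 AKO mice) and of inguinal fat (3 aliquots of a pool per genotype) was analysed. Each sample joins 2 transposase reactions. Per the labels and methods, the authors aligned reads to mm10 with BWA 0.7.17-r1188, removed duplicates with Picard 2.8.14, called peaks with MACS2 2.1.1.20160309 and counted reads over the merged peaks. Each deposited signal value is a count of reads in a peak over the DESeq2 size factor of its sample, as computed by the authors. Dividing each column by its smallest step recovered whole reads in every peak, to within 6.8e-06 of a read. Columns of the authors' own comparisons (fold changes, p-values) were not used, and 0 sample columns were left out. The labels and the methods differ on the number of nuclei used.

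limma 3.58.1 (lmFit, eBayes; R 4.3.3) was run on log2(normalized reads + 1) over all peaks of each table, with PC1 as covariate in brown fat only, Benjamini-Hochberg adjustment over the table and a call at 0.1. Fold changes are on that scale, which understates changes at low peaks. edgeR 4.0.16 and DESeq2 1.42.0 were run on the recovered reads. P-values in inguinal fat measure the spread between aliquots. With 3 against 3 samples an exact permutation test of a single peak cannot go below 0.1, so none was run. The limma, edgeR and DESeq2 fits were tested on simulated reads with planted changes, and the motif search on planted sites. Described with every sample were, per gene and table, the peak nearest the start, the peak of smallest p, and peaks with groups apart and an unadjusted p under 0.05; the Nnmt peaks at −102351 and −111616 bases, the Nadk peak at −11661 bases and the strong distal Nampt peaks were added after their values were seen. Of the 32 further genes the 3 peaks of smallest p per table are named. Distances run from the peak centre to the nearest curated RefSeq start (GRCm38.p6), and starts are 1-based. Members and lists were chosen with earlier results of these data known. Median reads per peak were 70 to 226 in brown fat and 62 to 98 in inguinal fat, which limits precision at weak peaks. Alternatives were TMM and total-read scaling, a minimum mean of 10, pseudocounts of 0.1 and 10, the other tools, a threshold of 0.05, with or without PC1, a replicate block, each sample left out, and peaks inside a gene or within 10 kb. Of the marker lists, 1 is not reported here.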

Additional observations from a re-analysis of the deposited data

How the results depend on the processing

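The 0 member peaks called in brown fat stayed at 0 under every alternative run. The 0 called in inguinal fat became 1 with edgeR on the recovered reads, the Nampt peak 24173 bases upstream, and stayed at 0 otherwise. Over all peaks, the 0 calls in brown fat became 1 with a pseudocount of 10, 84 with edgeR and 174 with DESeq2, and the 0 calls in inguinal fat became 1846 with edgeR and 420 with DESeq2. The cause was not tested. Leaving out any single sample gave 0 calls, members and all peaks alike. Peaks inside a gene or within 10 kb of it, 55 in brown fat and 35 in inguinal fat, gave 0 calls. Of 532 alternative fold changes at the 38 peaks described, 49 moved by more than a standard error, 31 of them by adding or removing PC1, and 30 changed sign. Among the 84 for peaks with an unadjusted p under 0.05, 1 did: the inguinal Nampt peak 158225 bases upstream, at −0.14 with a PC1 term, whose scores there separate the genotypes. The median of the brown fat members was −0.14 under the replicate block and −0.19 without PC1. The labels do not say whether replicate numbers pair the samples. The genotype mean of each peak was subtracted from the log2 values before same-numbered samples were correlated. These deviations correlated at 0.49, 0.06 and −0.24 in brown fat and at −0.04 to −0.06 in inguinal fat. By these deviations, 3 of 6 samples in brown fat and 0 of 6 in inguinal fat correlated best with their own number. These values do not settle whether some brown fat replicates share a batch. With the replicate block 0 peaks were called in both tables. Shallow peaks, under about 40 normalized reads, limit what can be seen at Cd38.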

Other observations

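At the Nampt peak 138173 bases upstream in brown fat (chr12:32681997-32682328), replicate 1 of each genotype stood apart: flox held 298, 60.6 and 77.6 normalized reads and AKO held 216, 54.1 and 66.2. Its PC1-adjusted fold change of 0.92, the largest positive value among the brown fat member peaks, went with a ratio of means below 1 (flox mean 146, AKO mean 112) and an unadjusted p of 0.202.

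Among the other NAD genes, edgeR called 4 inguinal peaks, and limma none. Besides the Haao peak already described, these were another Haao peak 26775 bases upstream (−0.34), a peak 235448 bases upstream of Nt5e (−0.98) and a peak 49669 bases upstream of Slc12a8, reported as a nicotinamide mononucleotide transporter (0.58).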
